A study of Mus musculus with 6 samples.

Results

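Expression of 10 circadian clock genes was examined in lung tissue of GRdim/dim and GR+/+ mice after hemorrhagic shock (HS). The genes were *Per1*, *Per2*, *Per3*, *Cry1*, *Arntl*, *Clock*, *Nr1d1*, *Nr1d2*, *Dbp* and *Tef*, taken by their symbols from the 54532 genes with deposited read counts. Lungs of 3 mice per genotype gave 1 RNA library each, so that a replicate is a mouse. All mice came from a 129/SvEv x C57BL/6 background and were 10 to 16 weeks old. In GRdim/dim mice the glucocorticoid receptor (GR, gene *Nr3c1*) dimerizes poorly because of an amino acid exchange in the part that binds DNA, and the GR+/+ mice were their wild type littermates. Both genotypes had been anesthetized, ventilated, bled to a mean arterial pressure of 35 mmHg during 1 h of HS, re-transfused, and resuscitated for 4 h with fluids and norepinephrine in a mouse intensive care unit. Every library analysed here thus comes from a shocked lung. GR+/+ mice were 2 females and 1 male, and GRdim/dim mice 1 female and 2 males. The mice were housed with 12 h of light and 12 h of dark and 1 mouse was operated per day. The hour of the day at which each lung was taken is not given in the sources used here, so an effect of genotype and an effect of sampling hour on a clock gene cannot be told apart.

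The circadian clock is a loop of transcription that runs in nearly every cell, lung cells included. The proteins of *Clock* and *Arntl* (BMAL1) form a dimer that binds E-box elements and activates the *Per* and *Cry* genes, whose proteins return to the nucleus and repress that dimer. In a second loop the nuclear receptors encoded by *Nr1d1* and *Nr1d2* (REV-ERBα and REV-ERBβ) repress *Arntl*, while *Dbp* and *Tef* encode PAR-domain bZIP factors that bind D-box elements and carry the rhythm to output genes. Transcripts of *Arntl* therefore peak at the opposite time of day from those of *Dbp*. Glucocorticoids set peripheral clocks, and *Per1* and *Per2* are known as direct targets of the GR.

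Libraries held 15687734 to 32082940 counts, and all 10 clock genes had enough reads to be tested among 16568 genes. Expression is printed in CPM, the count relative to the TMM-scaled library total, and the smallest count of a clock gene in a library was 60 (*Arntl*). Lung markers such as *Sftpc*, *Ager* and *Scgb1a1* summed to 33196 to 52838 CPM in GR+/+ and 36958 to 50961 CPM in GRdim/dim libraries, with none of 7 at 0. *Nr3c1* itself lay at 138 to 162 CPM in GR+/+ and 120.2 to 159 CPM in GRdim/dim libraries, but counts per gene cannot reveal the exchanged base. Of 15 lists of lung, blood and cell type markers, summed levels overlapped between genotypes in 11. Neutrophil markers were among these 11, with 216 to 408 CPM in GR+/+ and 302 to 965 CPM in GRdim/dim libraries. All 4 neutrophil markers tested had a log2 fold change above 0, with a median of 1.03. B cell markers (5 of 5 present) were higher in GRdim/dim libraries, with 48.8 to 115 CPM in GR+/+ and 123 to 430.4 CPM in GRdim/dim. T cell markers (5 of 5) had 16.02 to 28.9 and 34.4 to 45.9 CPM, and NK cell markers (4 of 4) had 5.02 to 13.2 and 15.4 to 23.3 CPM, in that order. Alveolar macrophage markers (5 of 5) were lower in GRdim/dim libraries, with 327 to 365 CPM in GR+/+ and 164 to 258 CPM in GRdim/dim. No marker of the 4 lists without overlap was at 0. The part of these lists and of the neutrophil markers in the differences below was not tested. In whole lung, fewer cells of a type and less RNA per cell cannot be told apart.

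*Per2* and *Cry1*, both repressors of the loop, had lower levels in every GRdim/dim library than in any GR+/+ library, and so did the output gene *Tef*. The other 7 genes overlapped between genotypes. A gene was called where edgeR's quasi-likelihood test gave an adjusted *p* under 0.05, over all 16568 genes, together with a log2 fold change of more than 0.5 in either direction. None of the 10 clock genes was called, where 28 of all genes or 0.169% were, 0.0966% as lower in GRdim/dim. At an unadjusted *p* under 0.05, 4 of the 10 clock genes were lower (*Per2*, *Cry1*, *Per3* and *Tef*) and 0 higher, against 4.68% of all genes lower and 9.6% in either direction. DESeq2 called 1 of the 10, *Per2*, against 1.71% of all genes, 0.905% as lower. The 3 of 10 genes whose genotypes did not overlap were all lower in GRdim/dim, where 7.05% of all genes were lower without overlap, 7.77% higher and 14.8% either. The median log2 fold change was -0.23 over the 10 genes and 0.0064 over all genes tested. Without GR+/+ replicate 2 the median over the 10 genes was -0.043, and without GR+/+ replicate 3 it was -0.35.

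**Figure D1:**
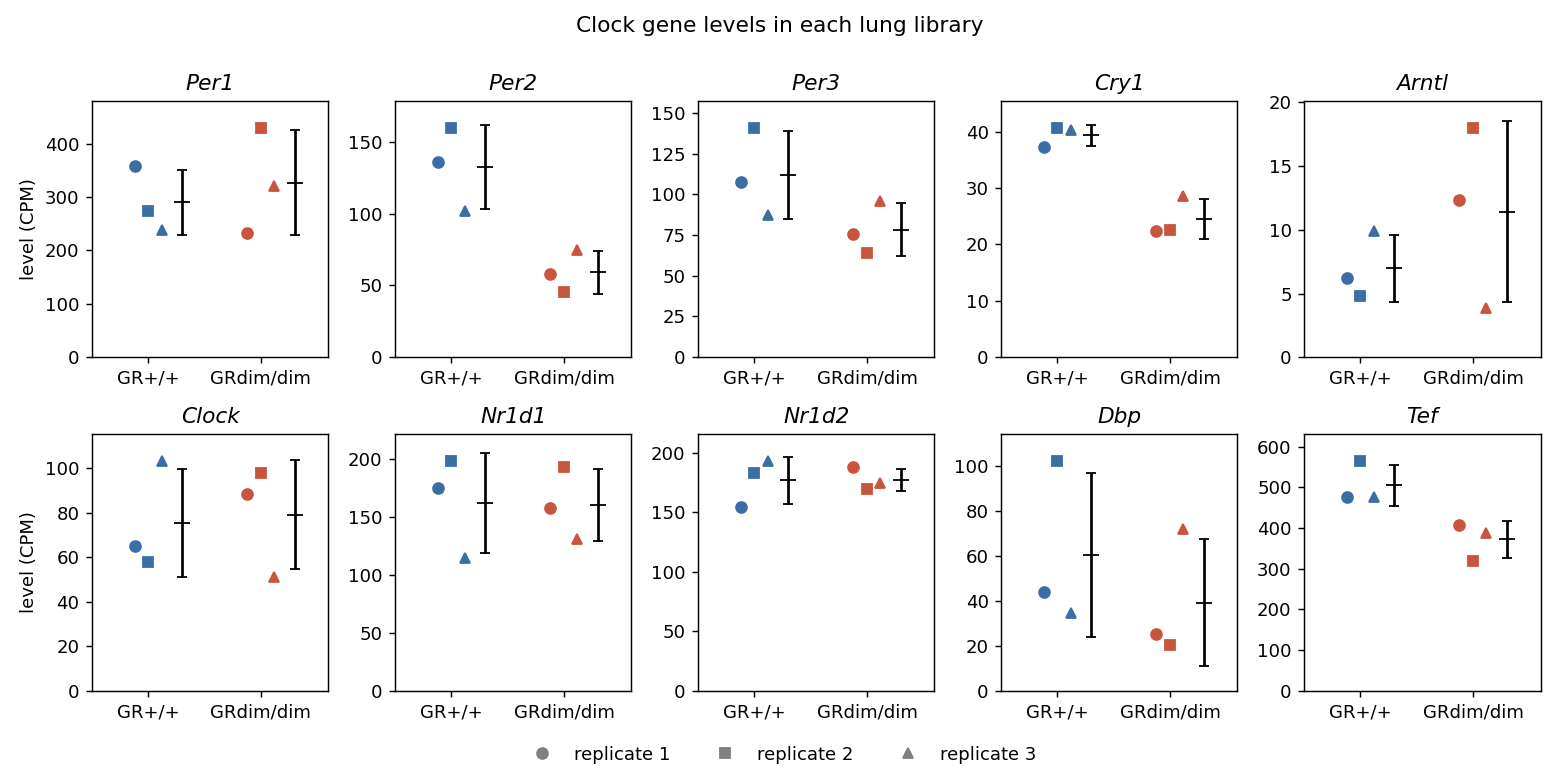
Level in CPM (y axis, from 0) of each clock gene in the 3 GR+/+ (blue) and 3 GRdim/dim (red) libraries, with the mean and SD in black and the symbol marking the replicate. *Per2*, *Cry1* and *Tef* do not overlap between genotypes, while *Arntl* and *Dbp* spread widely within each genotype.

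The period genes encode the PER proteins, which carry CRY proteins into the repressor complex. *Per2* (ENSMUSG00000055866, GRCm38 chromosome 1 from 91415982 to 91459324) had 136, 159.8 and 102 CPM in GR+/+ replicates 1, 2 and 3. It had 57.7, 45.2 and 74.5 CPM in GRdim/dim replicates 1, 2 and 3. The highest GRdim/dim library thus stayed below the lowest GR+/+ library (exact permutation test, two-sided *p* = 0.1, the smallest that 3 against 3 allow). Means were 133 ± 29.0 CPM in GR+/+ and 59.1 ± 14.7 CPM in GRdim/dim (SD, n = 3 each), a 2.24-fold lower level in GRdim/dim lungs. The log2 fold change was -1.17 (standard error 0.23, 95% interval -1.67 to -0.66) (edgeR, unadjusted *p* = 0.000403, adjusted *p* = 0.0997). DESeq2 gave the same log2 fold change of -1.17 (standard error 0.25) with an adjusted *p* of 0.000844, and called *Per2* also in all 6 fits that each left out 1 library (adjusted *p* from DESeq2 2.07e-05 to 0.0402). In edgeR, the adjusted *p* of *Per2* with 1 library left out was 0.0911 to 0.291. Without a filter on low counts it was 6e-06, in an edgeR fit that called far more genes in all (522 against 28).

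*Per3* (chromosome 4 from 151003652 to 151044665), a period gene that is not needed for the core rhythm, had 107, 141 and 87.3 CPM in GR+/+ and 75.6, 63.7 and 95.8 CPM in GRdim/dim replicates 1 to 3. GRdim/dim replicate 3 lay above GR+/+ replicate 3, so the genotypes overlapped. Its log2 fold change was -0.51 (standard error 0.22, unadjusted *p* = 0.0394 and adjusted *p* = 0.491 from edgeR), and the unadjusted *p* was under 0.05 in 2 of the 6 edgeR fits without 1 library.

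*Per1* (chromosome 11 from 69095217 to 69109960) did not share this direction. It had 358, 273 and 239 CPM in GR+/+ and 232, 429 and 319.6 CPM in GRdim/dim replicates 1 to 3. Both the lowest and the highest library were GRdim/dim. The log2 fold change was 0.17 (standard error 0.25, 95% interval -0.38 to 0.73, adjusted *p* = 0.901 from edgeR), and it was -0.07 without GRdim/dim replicate 2. Within a library, log2 CPM of *Per1* exceeded that of *Per2* by 1.39, 0.77 and 1.23 in GR+/+ and by 2.01, 3.25 and 2.10 in GRdim/dim replicates 1 to 3. This ratio within the library, in which scaling and depth cancel, was higher in every GRdim/dim library (mean 1.13 ± 0.32 in GR+/+ and 2.45 ± 0.69 in GRdim/dim, SD, n = 3 each). Of 13 other genes known to be induced by glucocorticoids, 5 were lower without overlap between genotypes (7.05% of all genes). Among these 5 were *Tsc22d3*, *Fkbp5* and *Klf9*, which the study had already reported as reduced in the same libraries. The counts over this list are therefore not independent of that result. Of the 13, edgeR called 1 (0.169% of all genes) and DESeq2 5 (1.71%), all lower. Of these genes, 7 had a log2 fold change below 0 and 6 above 0, with a median of -0.20. At an unadjusted *p* under 0.05 from edgeR, 5 were lower and 1 higher, against 4.68% and 4.91% of all genes.

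Exact letters of clock control elements were looked up in the 250 bases before each annotated start (RefSeq, GRCm38.p6), since E-boxes and D-boxes are the sites through which the loop acts. The 14 starts searched belong to 9 of the 10 genes, *Per2* not among them. These RefSeq starts can differ from the gene coordinates given in this text. Of the windows printed below, those of *Per1* and *Tef* lie inside these coordinates and that of *Cry1* partly so, while that of *Per3* lies just outside. The letters searched on both strands were CACGTG (E-box), TTATGTAA and TTACGTAA (D-box), AGGTCA (the core of the element shared by ROR and REV-ERB receptors), TGACGTCA (CRE) and, for the glucocorticoid response element, GNACA followed by NNN and TGTNC. No match overlapped another. The E-box occurred at 4 of the 14 starts, of *Per1*, *Cry1* and *Tef*, and in 6.02% of 32851 such windows of all genes. Below, matches are in capitals and each window ends at the base before the start.
*Per1*, chr11:69098699-69098948, plus strand: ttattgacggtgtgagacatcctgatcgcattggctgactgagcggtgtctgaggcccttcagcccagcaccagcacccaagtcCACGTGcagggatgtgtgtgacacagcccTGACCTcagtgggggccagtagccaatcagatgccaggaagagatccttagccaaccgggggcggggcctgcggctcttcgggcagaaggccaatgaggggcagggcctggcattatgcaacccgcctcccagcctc
*Per3*, chr4:151044666-151044915, minus strand: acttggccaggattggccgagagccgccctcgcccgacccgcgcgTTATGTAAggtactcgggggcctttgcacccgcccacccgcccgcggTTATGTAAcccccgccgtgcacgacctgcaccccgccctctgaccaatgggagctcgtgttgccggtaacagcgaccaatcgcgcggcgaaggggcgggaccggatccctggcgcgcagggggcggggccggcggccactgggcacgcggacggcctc
*Cry1*, chr10:85185055-85185304, minus strand: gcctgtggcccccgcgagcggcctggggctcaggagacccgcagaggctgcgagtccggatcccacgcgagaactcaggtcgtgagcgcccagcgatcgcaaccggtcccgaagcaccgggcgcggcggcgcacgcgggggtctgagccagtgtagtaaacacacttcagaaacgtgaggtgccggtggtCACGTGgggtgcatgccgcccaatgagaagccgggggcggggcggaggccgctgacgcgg
*Tef*, chr15:81802423-81802672, plus strand: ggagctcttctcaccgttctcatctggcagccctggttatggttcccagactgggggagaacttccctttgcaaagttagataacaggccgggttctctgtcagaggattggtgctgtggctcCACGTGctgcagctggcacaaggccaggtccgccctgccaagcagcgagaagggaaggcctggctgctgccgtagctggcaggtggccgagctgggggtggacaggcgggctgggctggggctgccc
In *Per1* the E-box lay 166 to 161 bases and the AGGTCA core (on the minus strand) 137 to 132 bases before the start. *Per3* held 2 D-boxes, 205 to 198 and 158 to 151 bases before the start, and the D-box letters occurred in 0.931% of all windows. The E-box lay 60 to 55 bases before the start of *Cry1* and 127 to 122 bases before that of *Tef*, and a further start of *Tef* also held one. The AGGTCA core was found in 3 of the 14 windows (*Per1*, *Clock* and *Nr1d2*) and in 14.02% of all. Neither CRE nor glucocorticoid response element letters occurred in the 14 windows, where 1.55% and 0.387% of all windows held them. Elements with other letters, or outside these windows, would be missed, so a window without a match does not mean a gene without the element. These matches describe the sequence and not binding, which was not measured.

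*Cry1* (ENSMUSG00000020038, chromosome 10 from 85131700 to 85185064) encodes a cryptochrome, the main repressor of the CLOCK and BMAL1 dimer. It had 37.2, 40.6 and 40.2 CPM in GR+/+ and 22.4, 22.5 and 28.5 CPM in GRdim/dim replicates 1 to 3. The GR+/+ libraries differed among themselves by 1.09-fold only, and all lay above the GRdim/dim libraries (exact permutation test, two-sided *p* = 0.1, the smallest possible). Means were 39.4 ± 1.87 and 24.5 ± 3.52 CPM (SD, n = 3 each). This gave -0.69 as the log2 fold change of *Cry1* (standard error 0.18, 95% interval -1.09 to -0.28). The unadjusted *p* was 0.00339 and the adjusted *p* 0.249 from edgeR, and DESeq2 gave an adjusted *p* of 0.0505. All 6 edgeR fits without 1 library kept an unadjusted *p* under 0.05 for *Cry1* (log2 fold change -0.81 to -0.62). The adjusted *p* in these edgeR fits was 0.152 to 0.495. With 1 library left out, DESeq2 called *Cry1* only without GRdim/dim replicate 3 (adjusted *p* = 0.00184). The other such DESeq2 fits gave an adjusted *p* of 0.148 to 0.247.

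The activators of the loop varied between mice of 1 genotype, and *Arntl* had the lowest level in CPM of the 10 genes. *Arntl* (ENSMUSG00000055116, chromosome 7 from 113207465 to 113314126) had 6.22, 4.80 and 9.88 CPM in GR+/+ and 12.3, 18.0 and 3.87 CPM in GRdim/dim replicates 1 to 3. GRdim/dim replicates 1 and 2 were the highest and GRdim/dim replicate 3 the lowest of all libraries, a 4.64-fold range within the genotype. The log2 fold change was 0.71 with a wide interval (standard error 0.48, 95% interval -0.37 to 1.78, adjusted *p* = 0.712 from edgeR). It was 0.22 without GRdim/dim replicate 2, and 1.11 without GRdim/dim replicate 3 (unadjusted *p* = 0.0106 and adjusted *p* = 0.316 from edgeR). *Clock* (chromosome 5 from 76209868 to 76304792) had 64.8, 57.7 and 103 CPM in GR+/+ and 88.4, 97.7 and 51.1 CPM in GRdim/dim replicates 1 to 3. Its lowest library was again GRdim/dim replicate 3. The log2 fold change was 0.07 (standard error 0.28, 95% interval -0.54 to 0.69, adjusted *p* = 0.968 from edgeR), and its sign differed between fits.

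With all 6 libraries, the genes of the REV-ERB receptors had the log2 fold changes nearest to 0 of the 10 genes. This order did not hold in every fit with 1 library left out, where *Nr1d1* ranged from -0.21 to 0.16. *Nr1d1* (chromosome 11 from 98767932 to 98775333) had 175, 198 and 114 CPM in GR+/+ and 158, 193 and 131 CPM in GRdim/dim replicates 1 to 3, a log2 fold change of -0.015 (standard error 0.23, 95% interval -0.53 to 0.49, adjusted *p* = 0.992 from edgeR). *Nr1d2* (chromosome 14 from 18204054 to 18239127) varied little, with 155, 183 and 193 CPM in GR+/+ and 188, 169.8 and 175 CPM in GRdim/dim replicates 1 to 3. Its libraries differed by 1.24-fold within GR+/+ and 1.11-fold within GRdim/dim. The log2 fold change was 0.0034 (standard error 0.16), with a 95% interval of -0.36 to 0.36. Exons of *Nr1d1* share 263 bases with *Thra* on the opposite strand, which had 98.2 to 103 CPM in GR+/+ and 71.1 to 122 CPM in GRdim/dim libraries. The use of strand in counting is not given in the sources used here, so reads of these bases cannot be told apart.

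The output genes differed in how much they varied. *Tef* (ENSMUSG00000022389, chromosome 15 from 81802421 to 81826863) had 475, 563 and 475 CPM in GR+/+ and 408, 319.9 and 387 CPM in GRdim/dim replicates 1 to 3, without overlap (exact permutation test, two-sided *p* = 0.1, the smallest possible). Its log2 fold change was -0.44 (standard error 0.19, 95% interval -0.85 to -0.03, unadjusted *p* = 0.0376 and adjusted *p* = 0.486 from edgeR), and the unadjusted *p* stayed under 0.05 in 3 of the 6 fits without 1 library. Exons of *Tef* share 193 bases with the opposite-strand gene *Gm17597*, which had 2 to 12 counts in a library. *Dbp* (chromosome 7 from 45705088 to 45710203) had 44.1, 102 and 34.7 CPM in GR+/+ and 25.4, 20.2 and 71.8 CPM in GRdim/dim replicates 1 to 3. It ranged 2.94-fold within GR+/+ and 3.55-fold within GRdim/dim, with GR+/+ replicate 2 and GRdim/dim replicate 3 far above the others. The log2 fold change of -0.62 (standard error 0.55, 95% interval -1.89 to 0.64, adjusted *p* = 0.800 from edgeR) rested on single libraries. It was -0.0029 without GR+/+ replicate 2 and -1.40 without GRdim/dim replicate 3 (unadjusted *p* = 0.0175 and adjusted *p* = 0.342 from edgeR), and in the latter case DESeq2 called *Dbp* (adjusted *p* = 0.0383). *Dbp* shares 539 exonic bases with *Sphk2* on the opposite strand, which had 42.9 to 61.8 CPM in GR+/+ and 34.7 to 56.6 CPM in GRdim/dim libraries.

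**Figure D2:**
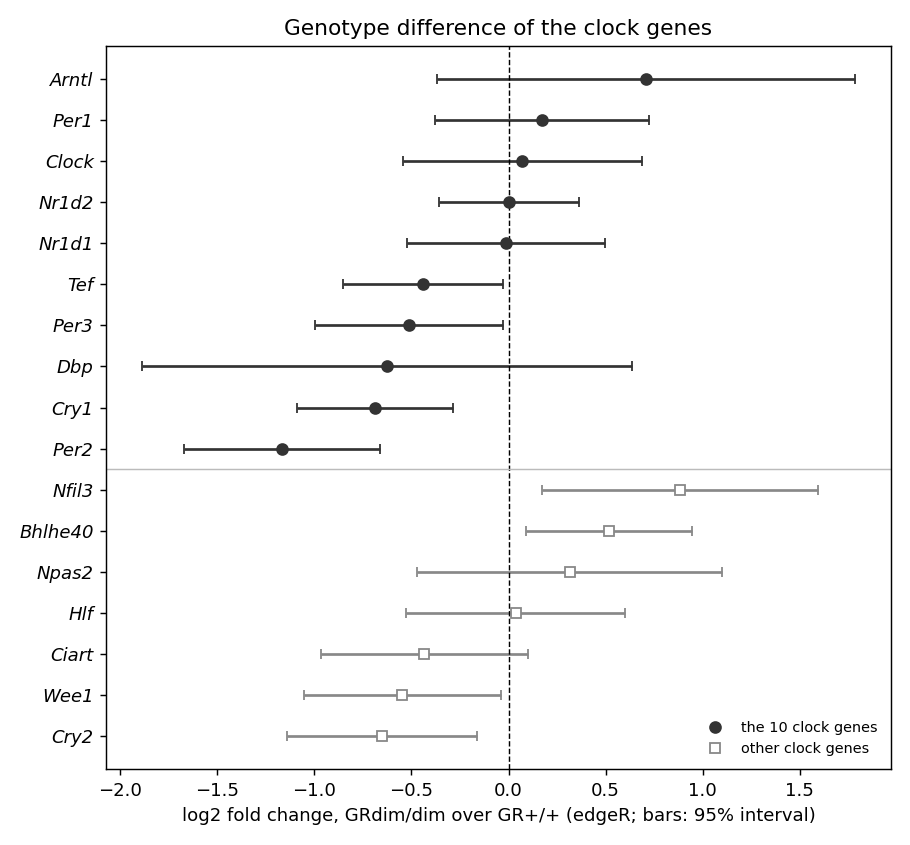
Log2 fold change of GRdim/dim over GR+/+ (x axis, edgeR) with its 95% interval for the 10 clock genes (filled circles) and for 7 other clock genes (open squares). *Per2* lies lowest at -1.17, and the intervals of *Dbp* and *Arntl* are the widest.

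*Arntl* and *Dbp* moved against each other from library to library in both genotypes. The difference of log2 CPM of *Arntl* minus *Dbp*, which does not depend on scaling, was -2.81, -4.38 and -1.80 in GR+/+ and -1.04, -0.17 and -4.18 in GRdim/dim replicates 1 to 3. Means were -3.00 ± 1.30 and -1.79 ± 2.11 (SD, n = 3 each), so the spread within a genotype exceeded the difference of 1.20 between them. The difference of *Arntl* minus *Nr1d1* also overlapped, with -5.34 to -3.52 in GR+/+ and -5.04 to -3.41 in GRdim/dim. *Dbp* and *Arntl* mark opposite times of the cycle, and GRdim/dim replicate 3 resembled GR+/+ replicate 2 in both genes rather than the other GRdim/dim libraries. The same libraries had the highest summed markers of pulmonary vein cardiomyocytes, with 696 and 872 CPM against 131 to 590 CPM in the others. Over the 6 libraries, log2 CPM of *Dbp* correlated by -0.94 with *Arntl*. That of *Nr1d1* correlated by 0.14 with *Arntl* and by 0.03 with *Dbp*. The part of sampling hour or of cell content in this resemblance was not tested.

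**Figure D3:**
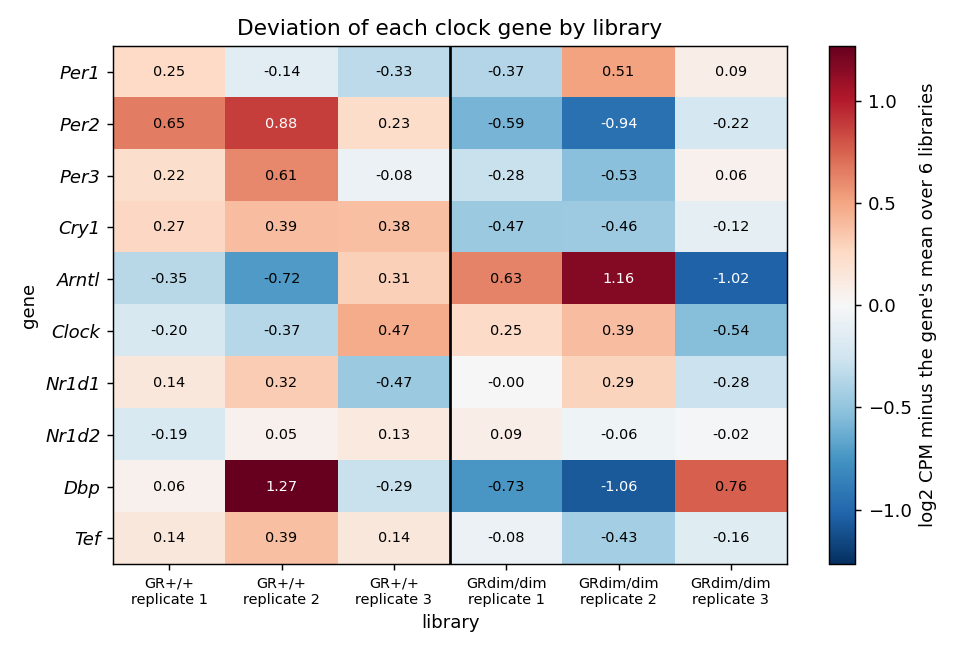
Log2 CPM of each clock gene (rows) in each library (columns) minus the mean of that gene over the 6 libraries, printed in each cell. *Arntl* and *Clock* are low where *Dbp* is high, as in GR+/+ replicate 2 and GRdim/dim replicate 3, whereas *Per2* and *Cry1* are above their mean in GR+/+ and below it in GRdim/dim libraries.

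*Per2* followed this ratio within each genotype but at separate levels. In GR+/+, *Per2* was highest in replicate 2 with the lowest ratio (159.8 CPM at -4.38) and lowest in replicate 3 with the highest ratio (102 CPM at -1.80). In GRdim/dim, it was likewise highest in replicate 3 (74.5 CPM at -4.18) and lowest in replicate 2 (45.2 CPM at -0.17). GR+/+ replicate 2 and GRdim/dim replicate 3, whose ratios differed least between genotypes, had 40.6 and 28.5 CPM of *Cry1*, 563 and 387 CPM of *Tef* and 141 and 95.8 CPM of *Per3*. In the same pair *Nr1d1*, whose genotypes overlapped, was at 198 and 131 CPM, *Clock* at 57.7 and 51.1 CPM, *Nr1d2* at 183 and 175 CPM and *Per1* at 273 and 319.6 CPM. The pair thus differed also in a gene with a log2 fold change near 0 between genotypes. With 3 mice per genotype, these orders are given as a description and were not tested.

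**Figure D4:**
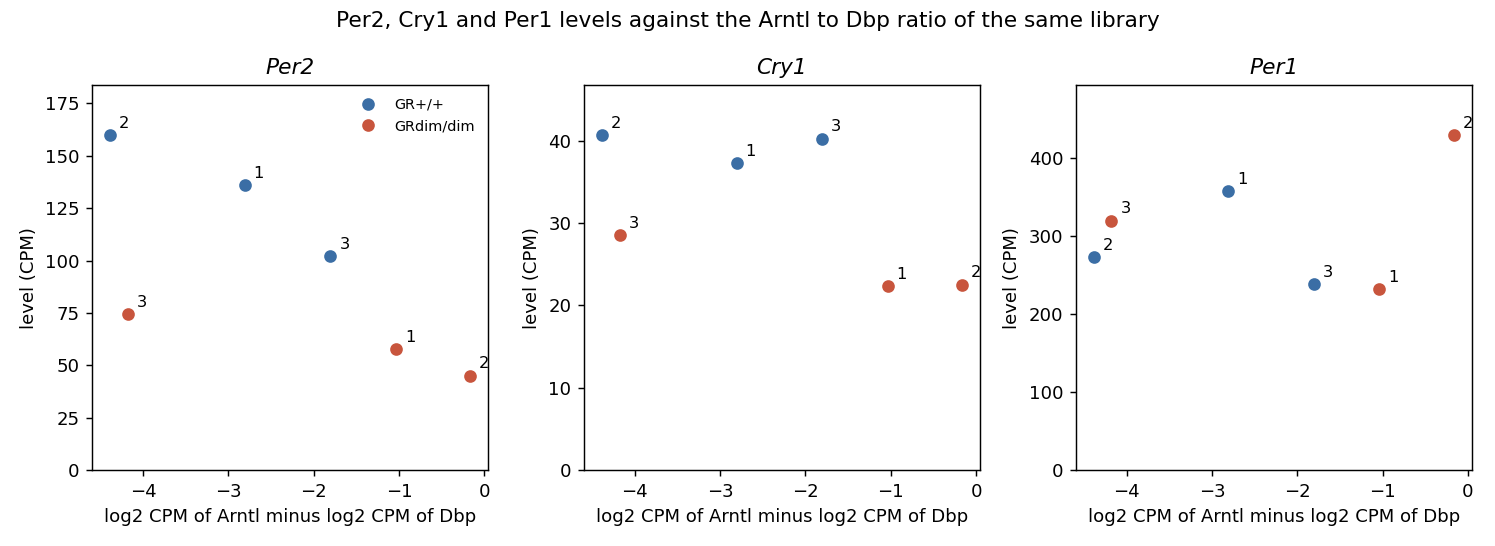
Level of *Per2*, *Cry1* and *Per1* in CPM (y axes, from 0) against log2 CPM of *Arntl* minus log2 CPM of *Dbp* in the same library (x axes), with each point a library and its replicate number. At ratios of -4.38 and -4.18, *Per2* is at 159.8 CPM in GR+/+ replicate 2 and at 74.5 CPM in GRdim/dim replicate 3.

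Per kilobase of exon, the 10 genes ranked from *Tef* (64.1 ± 6.48 CPM per kb), *Nr1d1* (52.7 ± 13.996) and *Per1* (51.5 ± 10.9) over *Nr1d2* (32.7 ± 3.64), *Per2* (22.6 ± 4.96) and *Dbp* (20.1 ± 12.2) down to *Cry1* (11.8 ± 0.56), *Per3* (11.6 ± 2.81), *Clock* (5.48 ± 1.77) and *Arntl* (0.93 ± 0.35) in GR+/+ lungs (SD, n = 3). Libraries of neighbours in this order overlapped for *Tef* and *Nr1d1*, *Nr1d1* and *Per1*, *Per2* and *Dbp*, *Dbp* and *Cry1*, and *Cry1* and *Per3*. In GRdim/dim lungs *Per1* ranked first (58.1 ± 17.5 CPM per kb, SD, n = 3), ahead of *Nr1d1* (52.1 ± 10.1) and *Tef* (47.2 ± 5.86), within their spread. *Per2* stood at 10.1 ± 2.52 CPM per kb there, below *Dbp* (13.1 ± 9.49) and within its spread.

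A fixed list of 25 other clock genes held loop genes and also genes tied to the clock more loosely, such as *Gsk3b*, *Btrc* and *Tspan4*. Of these 25 genes, 24 had enough reads, and edgeR and DESeq2 called 0 of them, where 0.169% and 1.71% of all genes were called. Genotypes did not overlap in 2 lower genes (*Cry2* and *Wee1*, against 7.05% of all genes) and in 3 higher genes (*Csnk1a1*, *Csnk1d* and *Timeless*, against 7.77%), the latter named after their values were seen. At an unadjusted *p* under 0.05 from edgeR, 2 were lower and 2 higher in GRdim/dim lungs, where 4.68% and 4.91% of all genes were. The median log2 fold change was -0.0006, with 12 genes on either side of 0. *Cry2*, the second cryptochrome, had 129.6, 95.3 and 95.7 CPM in GR+/+ and 51.4, 64.6 and 88.1 CPM in GRdim/dim replicates 1 to 3. Its log2 fold change was -0.65 (standard error 0.22, unadjusted *p* = 0.0142 and adjusted *p* = 0.382 from edgeR). *Wee1*, a cell cycle kinase gene with E-boxes that the clock uses, had 27.7, 23.7 and 21.3 CPM in GR+/+ and 19.1, 12.3 and 18.3 CPM in GRdim/dim (log2 fold change -0.55, standard error 0.23, unadjusted *p* = 0.0379 and adjusted *p* = 0.487 from edgeR). *Nfil3*, the repressor that competes with *Dbp* and *Tef* products at D-boxes, had 31.3, 18.5 and 18.1 CPM in GR+/+ and 25.4, 59.8 and 39.8 CPM in GRdim/dim (log2 fold change 0.88, standard error 0.32, unadjusted *p* = 0.0199 and adjusted *p* = 0.425 from edgeR). *Bhlhe40*, a repressor at E-boxes, was at 108 to 134 CPM in GR+/+ and 134 to 203 CPM in GRdim/dim (log2 fold change 0.52, standard error 0.19, unadjusted *p* = 0.0225 and adjusted *p* = 0.437 from edgeR). *Npas2*, which can replace *Clock*, lay at 3.54 to 5.65 and 3.94 to 8.60 CPM, the clock repressor gene *Ciart* at 19.2 to 33.6 and 17.1 to 22.7 CPM, and *Hlf*, the relative of *Dbp* and *Tef*, at 28.4 to 57.4 and 36.1 to 49.2 CPM. These 3 overlapped between genotypes, with log2 fold changes of 0.32, -0.43 and 0.04.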

How the data were processed

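Lung mRNA was sequenced as 1 bulk library per mouse. The table that the authors deposited holds raw read counts for each gene in 6 libraries, neither normalized nor pooled. The submitters' processing notes name mm10 and DESeq2, while the aligner, the counter and the use of strand are not given in the sources used here. Coordinates and lengths of the 10 clock genes equalled those of GENCODE M21 (GRCm38). Gene lengths were taken as deposited.

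Counts were fitted in R 4.3.3 with edgeR 4.0.16 (TMM, filterByExpr, robust glmQLFit, glmQLFTest) on genotype alone, with Benjamini-Hochberg adjustment over 16568 genes, and with DESeq2 1.42.0 as an alternative. Log2 CPM used a prior count of 2. Replicates of a genotype differed by a chi-square of 19.2 to 62.9 per gene and degree of freedom, so each counted as 1 sample. Totals were 15687734 to 32082940 counts. The procedure was tested on simulated data. Named were the 10 genes, and of the other clock genes those with an unadjusted *p* under 0.05 and 6 fixed ones. For *Per1*, *Dbp* and *Arntl*, the 3 most correlated genes were named. The members and lists were chosen with earlier results of these data known. Alternatives were RLE scaling, no filter, DESeq2, a replicate block, a covariate for sex-linked expression, no fold threshold and each library left out. DESeq2 with each library left out was added after seeing the data.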

Additional observations from a re-analysis of the deposited data

How the results depend on the processing

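With edgeR, 0 of the 10 clock genes were called with RLE scaling, the replicate block, the sex-linked covariate, no fold threshold or any library left out, and 1 (*Per2*) was called without a filter on low counts and with DESeq2. The number of genes called in all was 522 without a filter and 272 with DESeq2, and 4 to 22 in edgeR and 175 to 400 in DESeq2 with 1 library left out. In edgeR it was 12, 4 and 17 without GR+/+ replicates 1, 2 and 3 and 14 without GRdim/dim replicate 3, against 28 with all libraries. With 1 library left out, edgeR called 0 clock genes and DESeq2 1 to 3, the 3 (*Per2*, *Cry1* and *Dbp*) without GRdim/dim replicate 3. Over 17 alternatives, 6 of the 10 genes kept their direction, among them *Per2* (-1.36 to -1.003 on the log2 scale), *Cry1* (-0.81 to -0.62), *Per3* (-0.68 to -0.31) and *Tef* (-0.52 to -0.34). The sign of *Nr1d2* turned with RLE scaling (-0.0016), without a filter (-6.3e-05) and with DESeq2 (-0.0017), and that of *Nr1d1* with the replicate block (0.0033) and the sex-linked covariate (0.021). With 1 library left out, log2 fold changes ranged from -0.083 to 0.38 for *Per1*, -0.12 to 0.37 for *Clock*, -0.21 to 0.16 for *Nr1d1* and -0.090 to 0.070 for *Nr1d2*. The cause was not tested. Deviations of equally numbered libraries correlated by 0.22, 0.036 and -0.055, and GR+/+ replicate 3 correlated best with GRdim/dim replicate 2 (0.19), so the libraries share only a number. With the replicate block, 34 genes were called against 28, and the adjusted *p* of *Per2* from edgeR was 0.163. *Arntl* had the fewest reads of the 10 genes, with 60 to 433 counts in a library.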

Other observations

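The genes whose pattern was most like that of 3 clock genes were found by Pearson's correlation of log2 CPM over the 6 libraries, among 16567 other genes each. The 6 points share genotype, library and depth, and values near 1 are easily reached by the best of so many genes, so they are given as a description. For *Per1* they were *Lcat* (0.996), the gene of a cholesterol-esterifying plasma enzyme, *Ccnjl* (0.987) and *Olfm2* (0.976). For *Dbp* they were *Atp2a1* (0.982), the calcium pump of fast skeletal muscle, *Cited4* (0.981) and *AC154378.1* (0.976). For *Arntl* they were *Rab27b* (0.994), which encodes a GTPase of vesicle secretion, *Pgap1* (0.988) and *Mbtd1* (0.987). None of these 9 genes was among the other clock genes listed.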
